A study of Rattus norvegicus with 10 samples.

Results

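The genes described here are the connexins *Gja1*, *Gja4*, *Gja5*, *Gjb1*, *Gjb2*, *Gjb6* and *Gjd2* and the pannexins *Panx1* and *Panx2*, which form gap junctions and related large-pore membrane channels. They were taken as every probe whose transcript accession belongs to 1 of these 9 genes. Each gene had 1 probe, which makes 9 of the 15507 named genes and of the 30367 probes on the array. The trigeminal ganglion (TG), which holds the cell bodies of the sensory neurons of the face and mouth, was compared between naive rats and rats of an oral ulcerative mucositis (OUM) model. The 5 OUM rats were anesthetized, had filter paper with 50% acetic acid laid on the mucosa at the lower incisors for 30 sec, and were sampled on day 2, when the ulcer had formed. The 5 naive rats received anesthesia alone, and the labels give day 2 for them too. All were male Wistar rats, age-matched by the study's methods, with no transgene or deletion in either group. RNA came from whole ganglia of both sides after perfusion with saline, so the nerve divisions that do not serve the ulcer are part of every sample. Total RNA was labelled with 1 dye and read on 1 Agilent array per rat, so the p-values below measure the spread between rats.

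Connexin subunits assemble into hexameric channels, and channels of adjoining cells dock to form gap junctions that pass ions, second messengers and small metabolites. Pannexins form single-membrane channels that release ATP. In sensory ganglia, the satellite glial cells that wrap each neuron are coupled by gap junctions, and coupling after peripheral injury or inflammation has been studied as a part of orofacial pain. Myelinating Schwann cells, the vessel wall, the meninges and some neurons use other members of the family.

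The sequences just upstream of *Gja1*, *Gjb1*, *Gjb2* and *Gjb6* are shown because *Gjb2* and *Gjb6* varied together from rat to rat, and *Gja1* did so with *Gjb1*, as described further on. Each is the 250 bases before the annotated start of the gene, from RefSeq on the GRCr8 assembly, written 5′ to 3′ on the strand of the gene. Capitals mark matches, on either strand, to 6 short motifs: the GC box (GGGCGG), AP-1 (TGANTCA), the TATA box (TATAAA), the CCAAT box (CCAAT), the E-box (CACGTG) and a SOX core (ACAAAG). No 2 matches overlapped in the windows printed. All 9 genes matched a window.
*Gja1*, chr20:36302314-36302563, plus strand: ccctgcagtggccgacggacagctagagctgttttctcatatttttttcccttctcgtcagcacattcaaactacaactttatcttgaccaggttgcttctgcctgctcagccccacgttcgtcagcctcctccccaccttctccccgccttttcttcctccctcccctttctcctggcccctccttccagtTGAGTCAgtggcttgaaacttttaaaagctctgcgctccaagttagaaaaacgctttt
*Gjb1*, chrX:70541595-70541844, plus strand: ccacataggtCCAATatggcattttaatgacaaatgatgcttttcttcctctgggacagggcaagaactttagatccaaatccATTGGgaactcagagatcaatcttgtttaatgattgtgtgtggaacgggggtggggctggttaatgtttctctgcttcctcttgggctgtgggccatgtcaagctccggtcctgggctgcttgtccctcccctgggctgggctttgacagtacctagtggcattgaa
*Gjb2*, chr15:35381954-35382203, minus strand: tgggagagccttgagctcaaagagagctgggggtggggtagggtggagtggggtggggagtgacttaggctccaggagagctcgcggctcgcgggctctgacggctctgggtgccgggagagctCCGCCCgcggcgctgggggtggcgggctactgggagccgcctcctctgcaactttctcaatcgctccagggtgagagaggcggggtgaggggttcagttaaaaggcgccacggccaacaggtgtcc
*Gjb6*, chr15:35410139-35410388, minus strand: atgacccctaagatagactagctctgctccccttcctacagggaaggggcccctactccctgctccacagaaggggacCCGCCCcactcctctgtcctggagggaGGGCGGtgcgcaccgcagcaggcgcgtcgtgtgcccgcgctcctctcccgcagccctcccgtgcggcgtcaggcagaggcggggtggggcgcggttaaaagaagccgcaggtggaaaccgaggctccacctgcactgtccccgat

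*Gja1* held an AP-1 match 58 bases before its start, and AP-1 letters occurred in 6.34% of all 33469 windows of this length. *Gjb2* held 1 GC box at 126 bases and *Gjb6* held 2, at 172 and 145 bases, with a GC box in 30.5% of all windows. *Gjb1* held 2 CCAAT boxes, at 240 and 167 bases, and 34.0% of all windows held at least 1. The TATA box was found in 12.9% of all windows, the E-box in 5.59% and the SOX core in 16.3%, and none of these 3 was in the windows printed. A second annotated start of *Gjb6* had a GC box 102 bases and a SOX core 86 bases before it. *Gjb2* and *Gjb6* are neighbouring genes on chromosome 15. These matches describe letters only, and binding was not measured.

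Values are the log2 of the background-subtracted signal relative to the 75th percentile of the array, so 0 is the level of that percentile, and probes of different genes are not ranked against each other. The percentile itself lay between 1910 and 2174 signal units on the 10 arrays, and 69.1% to 75.7% of probes were well above background. The scanner marked at most 1 spot of an array as saturated. Naive array 4 and OUM arrays 4 and 5 were on a second slide (slide 2), and the other 7 arrays, 4 of them naive, on slide 1. The arrays naive 1, OUM 1 and OUM 2 were richest in pituitary transcripts. The mean log2 signal of the 7 tested pituitary markers (hormone genes, *Pitx1* and *Pou1f1*) ranged from -4.33 to -0.13 in naive and from -2.82 to 0.21 in OUM rats. Across all 21545 probes tested with limma, 0% (0 probes) passed an adjusted p of 0.05, while 1002 probes (4.65%) were higher and 799 (3.71%) lower in OUM at an unadjusted p under 0.05. The unequal-variance test named in the methods called 1 probe after adjustment.

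Of the 9 genes, 8 were well above background on all 10 arrays and were tested. *Gjd2* was not. None of the 8 passed the adjusted threshold. At an unadjusted p under 0.05, 1 of the 8 (*Gja1*) was higher in OUM and 0 were lower. All 8 estimates were above 0, with a median log2 difference of 0.13, where 51.5% of the 11729 tested genes were above 0 with a median of 0.0037. The 8 genes were read on the same 10 arrays and some of them varied together, so the 8 signs are not 8 separate observations. In bulk ganglia, a change in the number of cells of a type and a change in RNA per cell cannot be told apart.

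**Figure D1:**
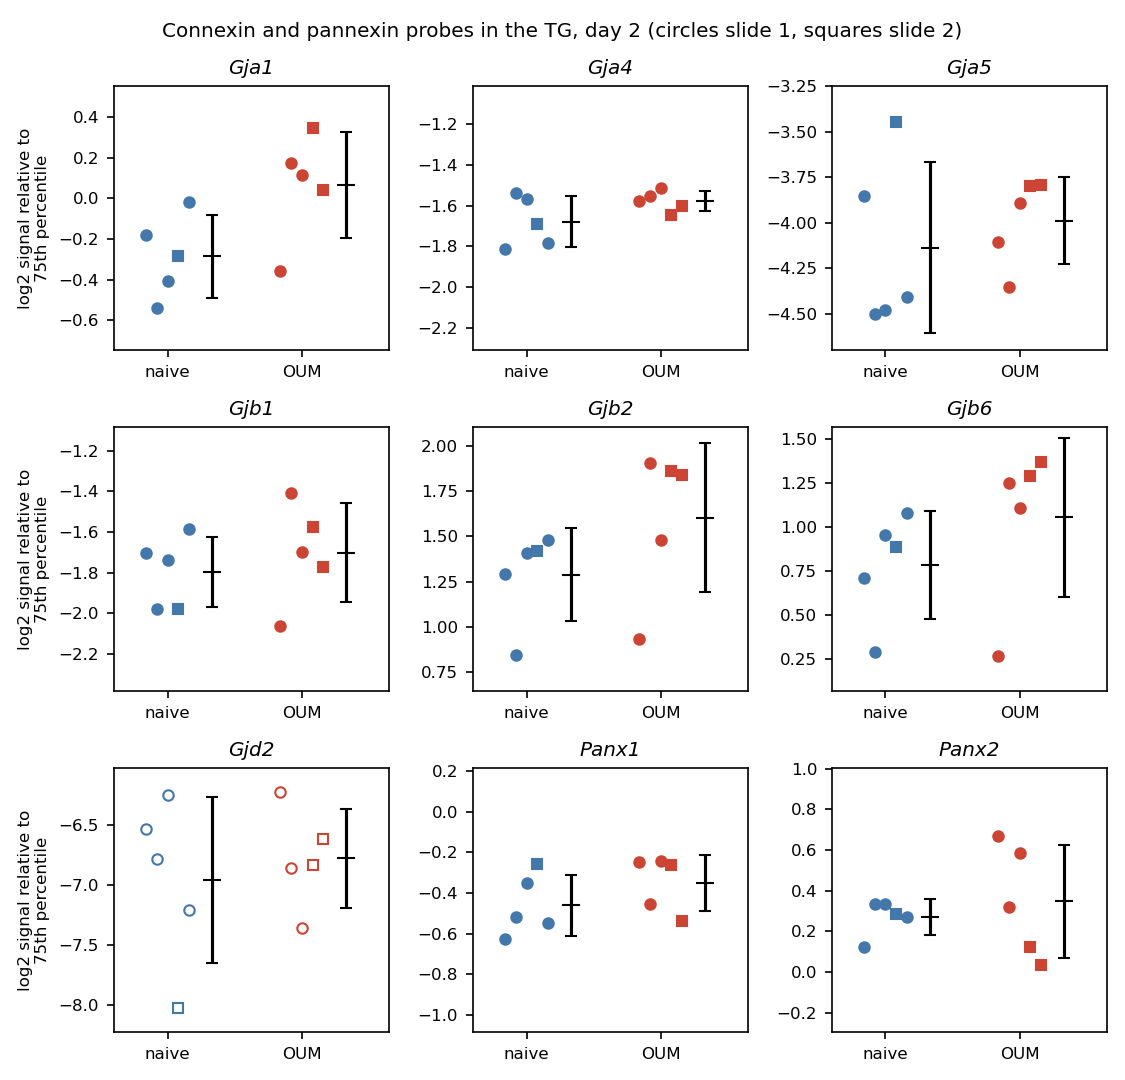
Log2 signal relative to the 75th percentile of the array (y axis, a separate range in each panel) for the 9 genes in naive (blue) and OUM (red) rats, with 1 point per array. Circles are slide 1, squares slide 2, open symbols the probe that was not tested (*Gjd2*), and black bars the mean ± SD of 5 arrays. In the *Gja1* panel 4 of the 5 OUM arrays lie above every naive array, and OUM array 1 is the lowest OUM point for *Gja1*, *Gjb1*, *Gjb2* and *Gjb6*.

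*Gja1* encodes Cx43, the connexin best known in astrocytes and satellite glia and also made by fibroblasts and vascular cells. Its log2 signal was -0.18, -0.54, -0.41, -0.28 and -0.02 on naive arrays 1 to 5, and -0.36, 0.18, 0.12, 0.35 and 0.04 on OUM arrays 1 to 5. The OUM arrays 2 to 5 were above every naive array, and OUM array 1 lay within the naive range, so the groups overlapped. The means were -0.29 ± 0.20 and 0.06 ± 0.26 (SD, n = 5 each), a log2 difference of 0.35 (SE 0.13) or 1.27-fold, with a 95% interval of 1.04 to 1.57-fold. The unadjusted limma p was 0.026 and the adjusted p 0.545, and the two-sided exact permutation test over all assignments of the arrays gave p = 0.056, where 0.00794 is the smallest it can give. The estimate was positive in every one of the 26 alternative settings run, between 0.27 and 0.48. The unadjusted p missed 0.05 when naive array 2 (0.065), naive array 3 (0.057), OUM array 2 (0.057), OUM array 3 (0.0502) or OUM array 4 (0.064) was left out, and it was 0.159 on slide 1 alone and 0.053 on slide 2 alone.

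*Gjb2* and *Gjb6* encode Cx26 and Cx30, which share cochlear supporting cells, the meninges and, for Cx30, astrocytes as known sites. *Gjb2* was 1.29, 0.85, 1.41, 1.42 and 1.48 on naive arrays 1 to 5, and 0.93, 1.90, 1.48, 1.86 and 1.84 on OUM arrays 1 to 5. OUM arrays 2, 4 and 5 were above every naive array, and OUM array 1 was below all naive arrays but naive 2. The group means were 1.29 ± 0.26 and 1.60 ± 0.41 (SD), a log2 difference of 0.31 (SE 0.19, 95% interval -0.12 to 0.75) with a limma adjusted p of 0.724.

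*Gjb6* was 0.71, 0.29, 0.95, 0.89 and 1.08 on naive arrays 1 to 5, and 0.26, 1.24, 1.11, 1.29 and 1.37 on OUM arrays 1 to 5. OUM arrays 2 to 5 were above every naive array and OUM array 1 was below every naive array, so this gene's OUM values lay on both sides of the naive range. The group means were 0.78 ± 0.31 and 1.05 ± 0.45 (SD), a log2 difference of 0.27 (SE 0.22, 95% interval -0.21 to 0.76) with a limma adjusted p of 0.788. The exact permutation p was 0.183 for *Gjb2* and 0.310 for *Gjb6*. Without OUM array 1 the differences were 0.48 for *Gjb2* (limma adjusted p = 0.299) and 0.47 for *Gjb6* (limma adjusted p = 0.319), both at an unadjusted limma p under 0.05.

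*Gjb1* encodes Cx32, which links the layers of the Schwann cell myelin sheath and is mutated in an X-linked neuropathy. Its log2 signal was -1.71, -1.98, -1.74, -1.98 and -1.59 on naive arrays 1 to 5, and -2.06, -1.41, -1.70, -1.58 and -1.77 on OUM arrays 1 to 5. OUM arrays 2 and 4 were above every naive array and OUM array 1 below every one. The log2 difference was 0.09 (SE 0.12, 95% interval -0.18 to 0.37, limma adjusted p = 0.879), smaller than the spread of either group (SD 0.17 and 0.24).

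*Gja4* and *Gja5* encode Cx37 and Cx40, the connexins of arterial endothelium. *Gja4* was -1.81, -1.54, -1.57, -1.69 and -1.78 on naive arrays 1 to 5, and -1.58, -1.55, -1.51, -1.64 and -1.60 on OUM arrays 1 to 5. The 5 OUM arrays fell in a narrow band (SD 0.05) inside or just above the wider naive range (SD 0.12), and the log2 difference was 0.10 (SE 0.06, 95% interval -0.04 to 0.24, limma adjusted p = 0.722). *Gja5* was -3.85, -4.50, -4.48, -3.45 and -4.41 on naive arrays 1 to 5, and -4.11, -4.35, -3.89, -3.80 and -3.79 on OUM arrays 1 to 5. Its highest value was on naive array 4, which lies on slide 2, so no OUM array exceeded the naive range. The log2 difference was 0.15 (SE 0.21, 95% interval -0.32 to 0.62, limma adjusted p = 0.888). On that naive array the value table of the authors gives -3.73 in place of -3.45, and with their table the difference was 0.21.

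*Panx1* encodes the widespread ATP-release channel, and *Panx2* a pannexin found mainly in the nervous system. *Panx1* was -0.63, -0.52, -0.35, -0.26 and -0.55 on naive arrays 1 to 5, and -0.25, -0.45, -0.24, -0.26 and -0.54 on OUM arrays 1 to 5. OUM arrays 1 and 3 were just above every naive array and the rest lay inside the naive range, with a log2 difference of 0.11 (SE 0.09, 95% interval -0.08 to 0.31, limma adjusted p = 0.779). *Panx2* was 0.12, 0.34, 0.34, 0.28 and 0.27 on naive arrays 1 to 5, and 0.67, 0.32, 0.59, 0.12 and 0.04 on OUM arrays 1 to 5. The naive rats were close together (SD 0.09), while the OUM rats spread to both sides of them (SD 0.28): OUM arrays 1 and 3 were above every naive array and arrays 4 and 5 below every one. The log2 difference was 0.08 (SE 0.12, 95% interval -0.19 to 0.34, limma adjusted p = 0.900).

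*Gjd2* encodes Cx36, the connexin of electrical synapses between neurons. Its single spot was well above background on 2 naive arrays (1 and 3) and 2 OUM arrays (1 and 5). The log2 signal was -6.96 ± 0.69 in naive and -6.78 ± 0.41 in OUM rats (SD, n = 5 each), near the detection limit, so no difference was tested.

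**Figure D2:**
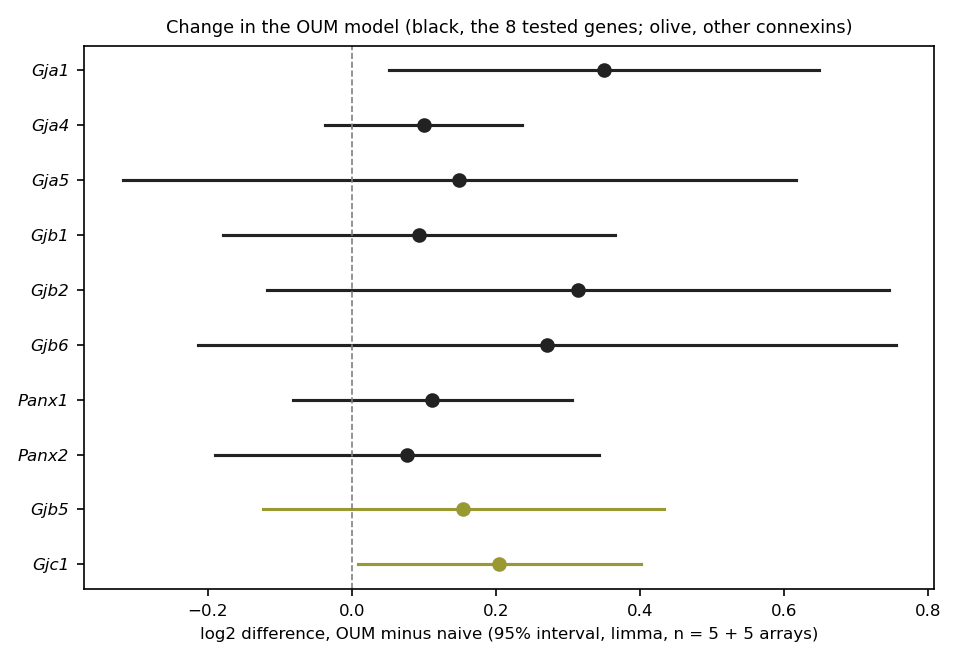
Log2 difference of OUM minus naive (x axis, point) with its 95% limma interval (line, 5 arrays per group) for the 8 tested genes in black and *Gjb5* and *Gjc1* in olive. The interval of *Gja1*, 0.05 to 0.65, and that of *Gjc1* leave out 0 before adjustment, and the intervals of the other 7 black points include it.

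Of the other connexin and pannexin genes, *Gjc1*, which encodes Cx45 of smooth muscle and some neurons, was at an unadjusted limma p under 0.05. It differed by 0.20 on the log2 scale (SE 0.09, limma adjusted p = 0.585) with an exact permutation p of 0.048, and 3 of the 5 OUM arrays were above every naive array. *Gjb5* differed by 0.15 (SE 0.13, limma adjusted p = 0.789). *Gja6*, *Gjd4*, *Gje1* and *Panx3* were not well above background on any array, and *Gja3* was so on 2 OUM arrays alone.

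Genes whose products bind, phosphorylate or degrade connexins, or act beside them, gave no call. Of 20 listed partners, 19 were tested, 0 passed an unadjusted limma p under 0.05 in either direction, and the median log2 difference was 0.0038. Over all tested genes 5.33% were higher and 3.12% lower at that threshold, so 0 among 19 genes is near those shares. The kinase gene *Src* (0.11, SE 0.06) and the anchoring protein gene *Akap5* (-0.10, SE 0.07) had the largest estimates. Of 12 other large-pore and volume channel genes, 8 were tested and 0 passed an unadjusted limma p under 0.05, again near the shares over all genes. *Lrrc8c*, a volume-regulated anion channel subunit, was at 0.14 (SE 0.07) and *Calhm5* at -0.11 (SE 0.07).

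Connexins differ by cell type, so the signals were set beside lists of marker genes. All 11 neuron markers with a probe, 12 of 13 satellite glia markers and all 12 Schwann cell and myelin markers were well above background on every array of at least 1 group. So were 13 of 13 markers of meninges and fibroblasts, 10 of 10 of macrophages and 7 of 9 of the pituitary, so detection alone does not single out the labelled tissue. *Kcnj10*, a defining satellite glia channel, was so on 3 naive and 4 OUM arrays alone. The mean log2 signal of the satellite glia list ranged from 2.35 to 2.58 in naive and 2.39 to 2.69 in OUM rats. In that list, 3 genes were higher (*Sox10* 0.18, *Gfap* 0.57 and *Glul* 0.22) and 1 lower (*Fabp7* -0.30) at an unadjusted limma p under 0.05, and 0 of the 12 after adjustment. Over the whole array 625 of the 11729 tested genes (5.33%) were higher and 366 (3.12%) lower before adjustment. The Schwann cell and myelin mean ranged from 3.43 to 3.63 in naive and 3.48 to 3.83 in OUM rats, with *Egr2* (0.39), *Sox10* and *Pou3f1* (0.19) higher and none lower of 12. The neuron mean ranged from 4.68 to 4.83 in naive and 4.55 to 4.93 in OUM rats, with *Scn9a* (-0.14) and *Elavl4* (-0.15) lower and none higher of 11. In the endothelium list 4 of 12 were higher (*Cldn5* 0.28, *Tie1* 0.42, *Vwf* 0.20 and *Esam* 0.18), with a mean of -2.13 to -2.07 in naive and -2.08 to -1.89 in OUM rats. Of the remaining lists, smooth muscle and pericytes had 2 higher of 9 tested, macrophages had 1 higher of 10, and epithelium (5 tested), pituitary (7), skeletal muscle (7) and blood (4) had 0, with none lower in any of these 6. All of these calls are before adjustment, and none held after it. The estimates of all 7 tested pituitary genes were above 0, with a median log2 difference of 1.16. Those of all 4 blood genes were below 0, with a median of -0.30.

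*Gja1* followed several marker lists from rat to rat, the satellite glia most closely among those not added later. With the mean of each group removed, its signal over the 10 arrays correlated at r = 0.94 (Spearman's rho 0.96) with the satellite glia mean. Without the 2 arrays farthest from the median of that mean (naive 2 and OUM 4) r was 0.91, and on the 7 arrays of slide 1 it was 0.99. With the macrophage mean, which ranged from -1.42 to -1.25 in naive and from -1.38 to -1.11 in OUM rats, r was 0.87 (rho 0.88, 0.84 without OUM 2 and OUM 4, and 0.88 on slide 1), and with the Schwann cell and myelin mean 0.79. These r values describe arrays that share libraries and normalization and carry no test. The genes most like *Gja1* over the 10 arrays included *Cyp7b1* (r = 0.98, log2 difference 0.39) and the growth factor receptor gene *Fgfr3* (r = 0.98, difference 0.42). The median r of *Gja1* with all other tested genes was -0.03, and the upper 5% began at 0.74.

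Since *Fgfr3* is well known from astrocytes, lists of astrocyte and oligodendrocyte markers were added after those values were seen. *Gja1* had r = 0.97 with the astrocyte mean (rho 0.94, 0.97 without the same 2 arrays, and 0.98 on slide 1). That list holds *Fgfr3* itself and shares *Gfap* with the satellite glia list, and over its other 6 tested genes r was 0.96 (rho 0.90). The mean of the whole list ranged from -1.84 to -0.83 in naive and from -1.38 to -0.21 in OUM rats. Of its 8 tested genes 5 were higher in OUM at an unadjusted limma p under 0.05 (*Aldh1l1* 0.48, *Agt* 0.59, *Gfap* 0.57, *Slc1a2* 0.63 and *Aqp4* 0.51) and 0 after adjustment. Over all tested genes 5.33% were higher before adjustment. Both added lists were chosen after the estimates of *Gja1* and *Fgfr3* were seen, so their counts are not separate support for the *Gja1* difference. *Gja1* had r = 0.91 with the oligodendrocyte mean (rho 0.95, 0.88 without naive 2 and OUM 4, and 0.97 on slide 1), where 2 of 10 genes (*Olig2* 0.60 and *Myrf* 0.37) were higher before adjustment. The oligodendrocyte mean ranged from -2.45 to -1.45 in naive and from -1.98 to -1.12 in OUM rats. The part of central glia, or of satellite glia, in the *Gja1* difference was not tested.

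**Figure D3:**
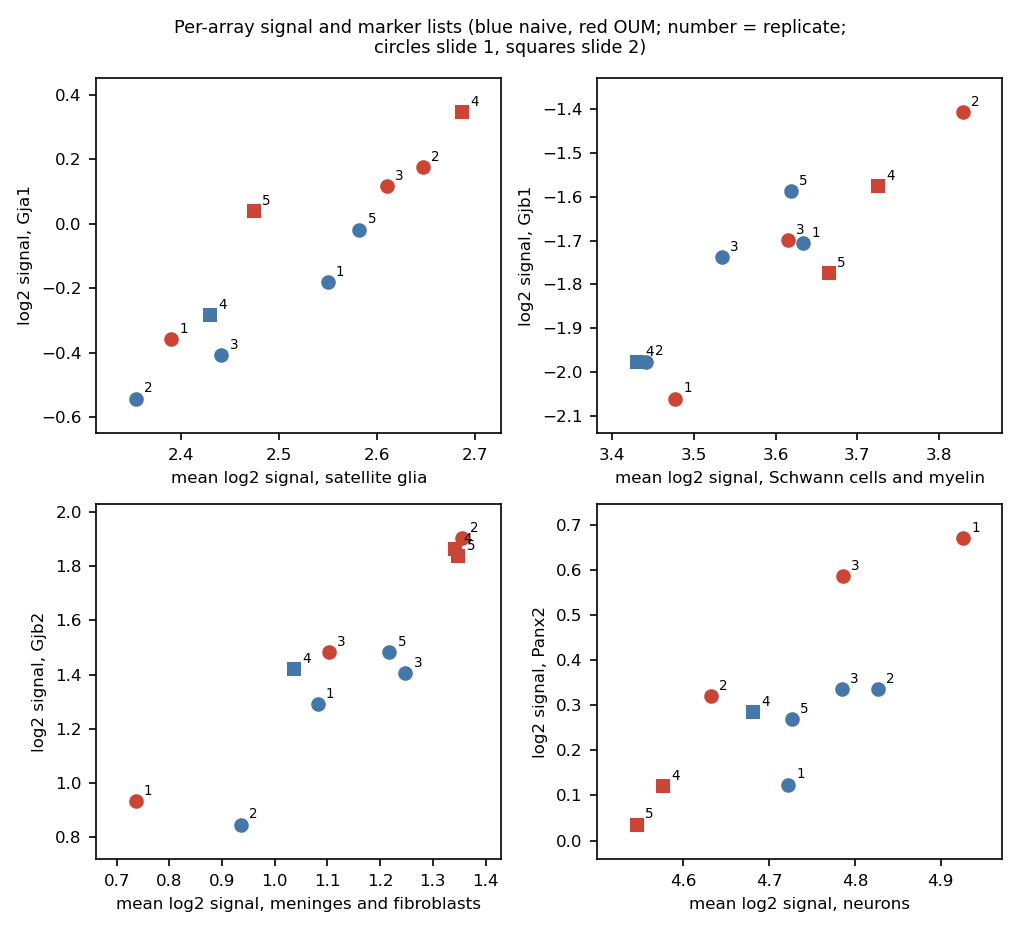
Log2 signal of *Gja1*, *Gjb1*, *Gjb2* and *Panx2* (y axes) against the mean log2 signal of the marker list named on each x axis, with 1 point per array, numbered by replicate, naive in blue and OUM in red, circles for slide 1 and squares for slide 2. Each gene rises with its list over the 10 arrays, and OUM array 1 has the lowest *Gjb1* value of the 10 arrays and the highest *Panx2* value.

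*Gjb1* followed the myelin markers most closely over the 10 arrays, with r = 0.96 (rho 0.93, 0.94 without naive 4 and OUM 2, and 0.96 on slide 1). Other lists were also close, with r = 0.89 for satellite glia and 0.83 for both macrophages and oligodendrocytes. On slide 1 alone r was 0.95 with meninges and fibroblasts and -0.96 with neurons, so the myelin list did not stand apart there. The genes most like *Gjb1* were *Gltp* (r = 0.98), *Pltp* (r = 0.98) and *Fa2h* (r = 0.98), which act in glycolipid transfer, phospholipid transfer and the hydroxylation of myelin lipids. Their log2 differences were 0.17, 0.27 and 0.21, none at an unadjusted limma p under 0.05. *Gjb1* also had r = 0.82 with *Gja1* (0.77 without OUM 1 and OUM 2, the arrays farthest from the *Gjb1* median). Naive 2 stayed in for that value, so it is not the check given below for *Gja1* with *Gjb2* and *Gjb6*.

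*Gjb2* and *Gjb6* had r = 0.97 with each other (rho 0.87), 0.75 without naive 2 and OUM 1, and 0.96 on slide 1. The closeness was not theirs alone on slide 1, where *Gjb1* had r = 0.98 with *Gjb2* and 0.93 with *Gjb6*. Over the 10 arrays those values were 0.77 and 0.74, and without naive 2 and OUM 1 they were 0.36 and 0.18. *Gjb2* and *Gjb6* both followed the list of meninges and fibroblasts, at r = 0.94 for *Gjb2* (rho 0.93, 0.82 without naive 2 and OUM 1) and r = 0.93 for *Gjb6* (rho 0.84, 0.77 without the same 2 arrays). Other lists were also close over the 10 arrays. *Gjb2* had r = -0.89 with neurons and 0.83 with astrocytes, and *Gjb6* had -0.83 and 0.80. On slide 1 alone *Gjb2* had r = 0.98 with meninges and fibroblasts, 0.92 with Schwann cells and myelin, and -0.92 with neurons. For *Gjb6* those values were 0.95, 0.81 and -0.82. The mean of the meninges and fibroblasts list ranged from 0.94 to 1.25 in naive and from 0.74 to 1.36 in OUM rats, lowest on OUM array 1, and 1 of its 13 genes (*Igfbp2* 0.27) was higher before adjustment. *Slc16a11*, a monocarboxylate transporter family member, was the gene most like both (r = 0.97 with each). Next came the organic anion transporter gene *Slc22a6*, itself on the meningeal list, and *Mtdh* for *Gjb2*, and *Ang2* and *Msx2* for *Gjb6*. The r of *Gja1* with this pair, 0.83 with *Gjb2* and 0.82 with *Gjb6*, rested on naive 2 and OUM 1, since without them it was 0.28 and 0.19. The part of meningeal tissue in the *Gjb2* and *Gjb6* values was not tested.

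*Panx2* followed the neuron list. Its r was 0.92 with the neuron mean (rho 0.92, 0.83 without OUM 1 and OUM 5, and 0.91 on slide 1) and -0.72 with *Gjb2*. Several negative r values were also large, at -0.85 with endothelium and -0.78 with smooth muscle and pericytes. On slide 1 alone r was -0.92 with Schwann cells and myelin, so the neuron list did not stand apart there in size. The genes most like *Panx2* were *Amigo3* (r = 0.995), the sodium channel subunit gene *Scn4b* (r = 0.98) and the calcium-binding protein gene *Cabp1* (r = 0.98), with log2 differences of -0.03, -0.04 and 0.04. For *Panx2* the upper 5% of all genes began at r = 0.86.

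*Panx1*, *Gja4* and *Gja5* had no list with so high a positive r over the 10 arrays. *Gja4* had r = -0.66 (rho -0.73) with the astrocyte mean. With macrophages *Panx1* had r = -0.39 over the 10 arrays and -0.84 on slide 1, and with neurons 0.36 and 0.68. *Panx1* was most like the interferon-induced gene *Ifit3* (r = 0.94, log2 difference 0.44, SE 0.25), then *Wasf1* and *Mtmr4*. *Gja4* and *Gja5* did not follow the endothelial list, with r of -0.15 and 0.18. *Gja4* was most like *Rnf41*, *Ass1* and *Klhl29* (r = 0.89 to 0.90), and *Gja5* most like *Ptpra*, *Spmap2* and *Rab1a* (r = 0.93 to 0.95).

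**Figure D4:**
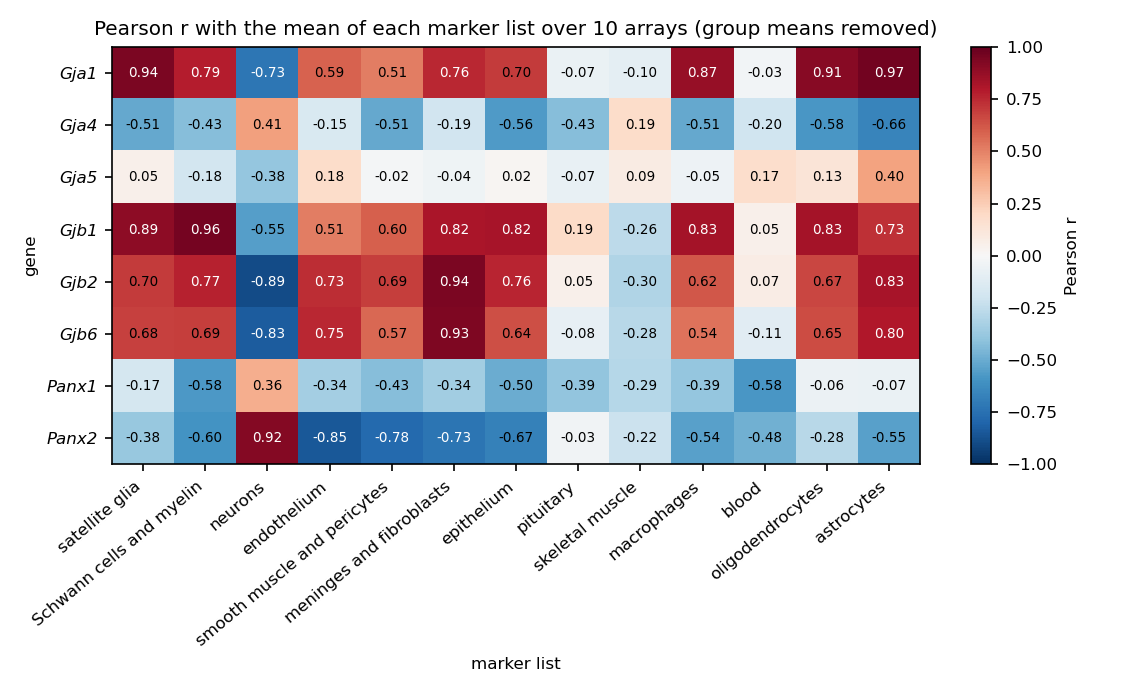
Pearson r, as colour and number from -1 to 1, of each tested gene (rows) with the mean log2 signal of each marker list (columns) over the 10 arrays, after the mean of each group was removed. The strongest entries are *Gja1* with astrocytes (0.97) and satellite glia (0.94), *Gjb1* with Schwann cells and myelin (0.96), *Gjb2* and *Gjb6* with meninges and fibroblasts (0.94 and 0.93) and *Panx2* with neurons (0.92), while the highest entry of *Gja4*, *Gja5* and *Panx1* is 0.41.

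The slides gave different pictures for some genes. With the slide as a block the *Gja1* difference was 0.32 (limma adjusted p = 0.427), 0.27 within slide 1 and 0.48 within slide 2, whose single naive array is assumed to vary like the others. For *Gjb2* the 2 slides gave 0.18 and 0.43, for *Gjb6* 0.12 and 0.44, for *Gjb1* 0.03 and 0.30, and for *Gja4* 0.13 and 0.07. *Panx2* was at 0.26 on slide 1 and -0.21 on slide 2, *Panx1* at 0.20 and -0.14, and *Gja5* at 0.19 and -0.35. The group by slide term, tested over all probes with limma, was -0.47 for *Panx2* (adjusted p = 0.393), -0.54 for *Gja5* (adjusted p = 0.605) and -0.34 for *Panx1* (adjusted p = 0.558). *Panx2* was the only one of the 8 genes at an unadjusted limma p under 0.05 for this term, and none passed after adjustment.

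**Figure D5:**
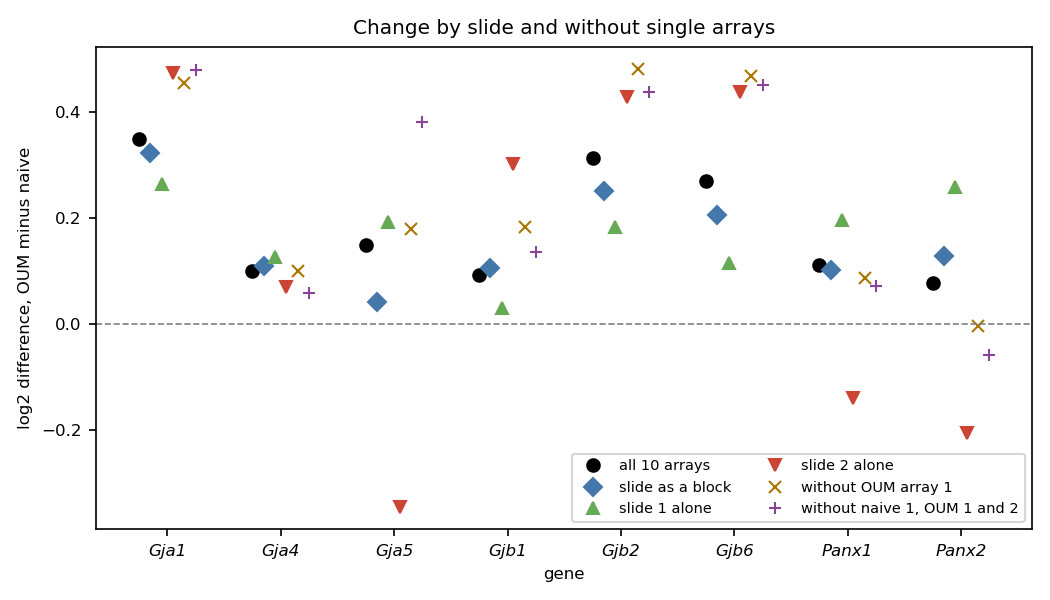
Log2 difference of OUM minus naive (y axis) for the 8 tested genes with all 10 arrays (black circles), the slide as a block (blue diamonds), slide 1 alone (green triangles), slide 2 alone (red triangles pointing down), OUM array 1 left out (crosses) and naive 1, OUM 1 and OUM 2 left out (plus signs). *Gja1*, *Gja4*, *Gjb1*, *Gjb2* and *Gjb6* stay above 0 in all 6 settings, and *Gja5*, *Panx1* and *Panx2* fall below 0 on slide 2.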

How the data were processed

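TG RNA of 5 naive and 5 OUM rats was measured, 1 array each. Arrays of 1 colour were scanned by the authors, and spots were read with Agilent Feature Extraction 10.7.1.1 (submitters' processing notes), and the deposited intensity is the processed signal after background subtraction, with a flag for spots well above background. The value table of the authors was checked against it: after a constant per array was removed (0.0065 to 0.0120 log2 units), 95.8% to 98.0% of tested probes agreed within 0.01 log2 units, and it has column medians of 0.114 to 0.120. From the deposited intensity, log2 values were computed minus the 75th percentile of each array, after control and outlier spots (267 to 334 per array) were left out and the spots of a probe averaged. On each of 2 arrays (OUM 4 and OUM 5), 1 spot of the 9 genes was dropped. Accessions were matched to symbols with RefSeq (GRCr8), which named 18438 probes and left 11929 unnamed. The genome build of the array design was not used.

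Probes entered the test if every array of the naive or of the OUM group showed them well above background. In R 4.3.3 (with the data.table package, version 1.17.8), limma 3.58.1 fitted the 2 groups to each probe with empirical Bayes moderation, and two-sided p-values were adjusted by Benjamini-Hochberg across the probes tested, with a threshold of 0.05. Exact permutation tests were run beside it, and the number of arrays limits the precision. Correlations removed the mean of each group, and 104 were computed between the 8 genes and 13 marker lists, with no test. A gene's brightest probe stood for it in lists. Named genes are all 9 genes, up to 4 genes of each list with the lowest p under 0.05 (the 2 largest estimates where fewer than 2 passed), the 3 genes most alike to each (some genes are not reported here), and the brightest or undetected markers. The genes, lists and tests were chosen with earlier results of these data known. The astrocyte and oligodendrocyte lists, the slide interaction and the checks of the correlations were added after seeing the data. The normexp correction used the median spot signal with an offset of 50.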

Additional observations from a re-analysis of the deposited data

Results flagged for a closer look

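The *Gjb6* signal on OUM array 1, 0.264 on the log2 scale, stood apart from the other 4 OUM arrays, of which the nearest was at 1.11. Its gap to that array was 0.764 of the range of the group, above the Dixon limit of 0.71 for 5 samples. Of the 16 groups of 5 arrays examined (8 genes in naive and OUM rats) this was the only one past the limit, and chance flags about 1 in 20. On the same array *Gjb2* (0.93), *Gjb1* (-2.06) and *Gja1* (-0.36) were also the lowest of their OUM group, the mean of the meninges and fibroblasts list was the lowest of all 10 arrays (0.74), the neuron mean was the highest (4.93), and the pituitary mean was among the 3 highest (-0.06).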

How the results depend on the processing

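The 8 genes kept their direction under the 26 alternatives run (other normalizations and background correction, filters, probe summaries, slide and replicate blocks, single slides, the methods' test, the authors' table and each array left out), except *Gja5* (-0.35), *Panx1* (-0.14) and *Panx2* (-0.21) on slide 2 alone, and *Panx2* without naive 1, OUM 1 and OUM 2 (-0.059) and without OUM array 1 (-0.0044, within a leave-one-out range of -0.0044 to 0.15). No gene passed the adjusted threshold in any of them, the lowest adjusted p being 0.188 (*Gjb2* on slide 2 alone). The count of the genes at an unadjusted limma p under 0.05, 1 in the full comparison, was 3 on slide 2 alone (*Gjb2* and *Gjb6* higher, *Gja5* lower), 3 without naive 1, OUM 1 and OUM 2 (*Gja1*, *Gjb2* and *Gjb6*), and 0 to 3 when single arrays were left out: 0 without naive 3, OUM 2, OUM 3 or OUM 4, and 3 without OUM 1. Without naive 2 the 1 gene was *Gja4* (0.14), and on slide 1 alone it was *Panx2* (0.26). Over all probes, 0 passed the adjusted p, against 1 with normexp, 2 among probes detected on all 10 arrays, 4 with the slide as a block, 5 on slide 1 alone, 352 on slide 2 alone (1 naive against 2 OUM arrays), 1 with the methods' Welch test and 0 to 1 when single arrays were left out. The replicate numbers do not pair the rats (correlations of same-numbered arrays from -0.09 to 0.32, and 0 of 5 were best with their own number). With the replicate number as a block, 0 probes passed the adjusted p and 1 of the genes the unadjusted one (*Gja1*, 0.35). Low signal limits *Gjd2*. The cause of these differences was not tested.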
